A study of Schmidtea mediterranea with 14 samples.

Results

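A graded set of 59 transcripts, of 28069 counted in whole planarians, was lowest in control animals, higher in apob-M animals and highest in apob-S animals, with no overlap between libraries. The set was chosen on its values. A member needed a mean of at least 4 CPM (the count of a transcript divided by the total of its library, times 1000000) over 14 libraries, its lowest apob-S library above its highest apob-M library, its lowest apob-M library above its highest control library, and a log2 ratio of the apob-S mean to the control mean of at least 0.6 with 0.5 CPM added to each mean. In all, 65 transcripts met these conditions, and 6 were left out because the study lists them among lipid genes or because they were named beforehand. All 3 pairs of groups were used to choose the members, so their levels and differences are given here as a description and carry no test.

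Libraries came from uninjured asexual Schmidtea mediterranea of the clonal line CIW4, each from a separate pool of animals. In apob-S (4 libraries) and apob-M (4 libraries), both apob-1 and apob-2 were knocked down by feeding double-stranded RNA (dsRNA) of the 2 genes, and the animals were separated by the study into severe and mild phenotypes, judged largely by how far pigment was lost. Control animals (6 libraries) were fed dsRNA of egfp, a gene that planarians lack. Every group was fed dsRNA 3 times with liver and starved for 7 days before RNA extraction. Severity was seen and not assigned, so apob-S and apob-M received the same treatment, and anything else that went with severity cannot be told apart from it. RNA was taken from whole animals, so more cells of a type and more RNA per cell cannot be told apart either.

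Apolipoprotein B is the scaffold protein of the lipoprotein particles that carry neutral lipid out of absorptive tissue, which in planarians is the intestine. Lysosomes break down lipid and protein, cytochromes P450 oxidise drugs, steroids and fatty acids, and membrane transporters move small molecules and ions. Proteins of these kinds are found among the annotated members, beside enzymes of methionine metabolism, iron proteins, secreted proteases and signalling proteins. Whether any of them handles lipid carried by apolipoprotein B was not tested. The supplementary tables used here, which hold only part of the study's annotation, gave a human best hit to 28 members, and Gene Ontology terms but no best hit to 9 more. The other 22 members are known here by their dd_Smed_v6 transcript identifiers alone, and no sequences were used.

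Total counts were between 16839133 and 23039326 per library. Both targeted genes were reduced. The apob-1 transcript dd_Smed_v6_636_0_1 had 243.8 to 327.8 CPM in apob-S and 233.0 to 310.9 CPM in apob-M, against 1238 to 1709 CPM in control, and dd_Smed_v6_194_0_1 (apob-2) had 247.9 to 469.9 CPM in apob-S and 383.5 to 585.6 CPM in apob-M, against 987.0 to 1631 CPM in control. The log2 difference of apob-S minus apob-M was 0.11 ± 0.11 (SE) for apob-1 and -0.23 ± 0.19 for apob-2 (edgeR adjusted p = 0.592 and 0.517), and neither was called. Over the 9 cell type markers, 3 were called higher and 3 lower in apob-S against control, and 4 higher and 3 lower in apob-M against control. Of all tested transcripts, 13.5% were called higher and 15.7% lower in apob-S, and 7.05% higher and 8.24% lower in apob-M. The neuron marker ChAT was called higher in apob-M alone, with 90.1 CPM in apob-S, 104 CPM in apob-M and 88.2 CPM in control (edgeR adjusted p = 0.655 in apob-S and 0.0123 in apob-M). The early epidermal progeny marker prog-1 had 158.8 to 178.4 CPM in apob-S, 231.6 to 258.6 CPM in apob-M and 270.1 to 319.8 CPM in control, and the pharynx marker laminin had 29.5 to 32.7, 37.5 to 49.4 and 53.2 to 77.0 CPM in the same groups. The neoblast (stem cell) markers were piwi-1, which was not called, and tgs-1, which averaged 10.2 CPM in apob-S and 10.6 CPM in apob-M, against 6.58 CPM in control (log2 fold changes 0.64 and 0.68, edgeR adjusted p = 0.000156 and 0.000266). The 4 intestine markers summed to 2506 to 2734 CPM in apob-S, 2488 to 2832 CPM in apob-M and 2504 to 2807 CPM in control. That sum is mostly ctsla, which was not called, and the others moved in both directions. slc22a6 averaged 238 CPM in apob-S and 226 CPM in apob-M, against 189 CPM in control, and nkx2.2 141 CPM in apob-S and 125 CPM in apob-M, against 114 CPM in control, both called higher in both groups. npc2 was called lower in both, with 451 CPM in apob-S, 406 CPM in apob-M and 532 CPM in control. The calls of nkx2.2 in apob-M and npc2 in apob-S were near the threshold (log2 fold changes 0.12 and -0.23, edgeR adjusted p = 0.0451 and 0.0397). The part of such shifts in the members' levels was not tested.

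Transporters, lipid and methionine enzymes, secreted proteases and signalling proteins were found among the members, all higher in apob-S than in apob-M and higher in apob-M than in control. The 59 members together took 12404 to 14702 CPM in apob-S libraries, 9084 to 10652 CPM in apob-M libraries and 5843 to 6438 CPM in control libraries. The median member stood 0.97 above control on the log2 scale in apob-S and 0.47 above it in apob-M. Over all 18436 transcripts tested the same medians were -0.01 and 0.01. In apob-S the members' log2 differences from control were between 0.61 and 4.58, and 28 members had at least 2-fold the control mean. In apob-M the differences were between 0.15 and 2.00, and 7 members reached 2-fold.

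**Figure D1:**
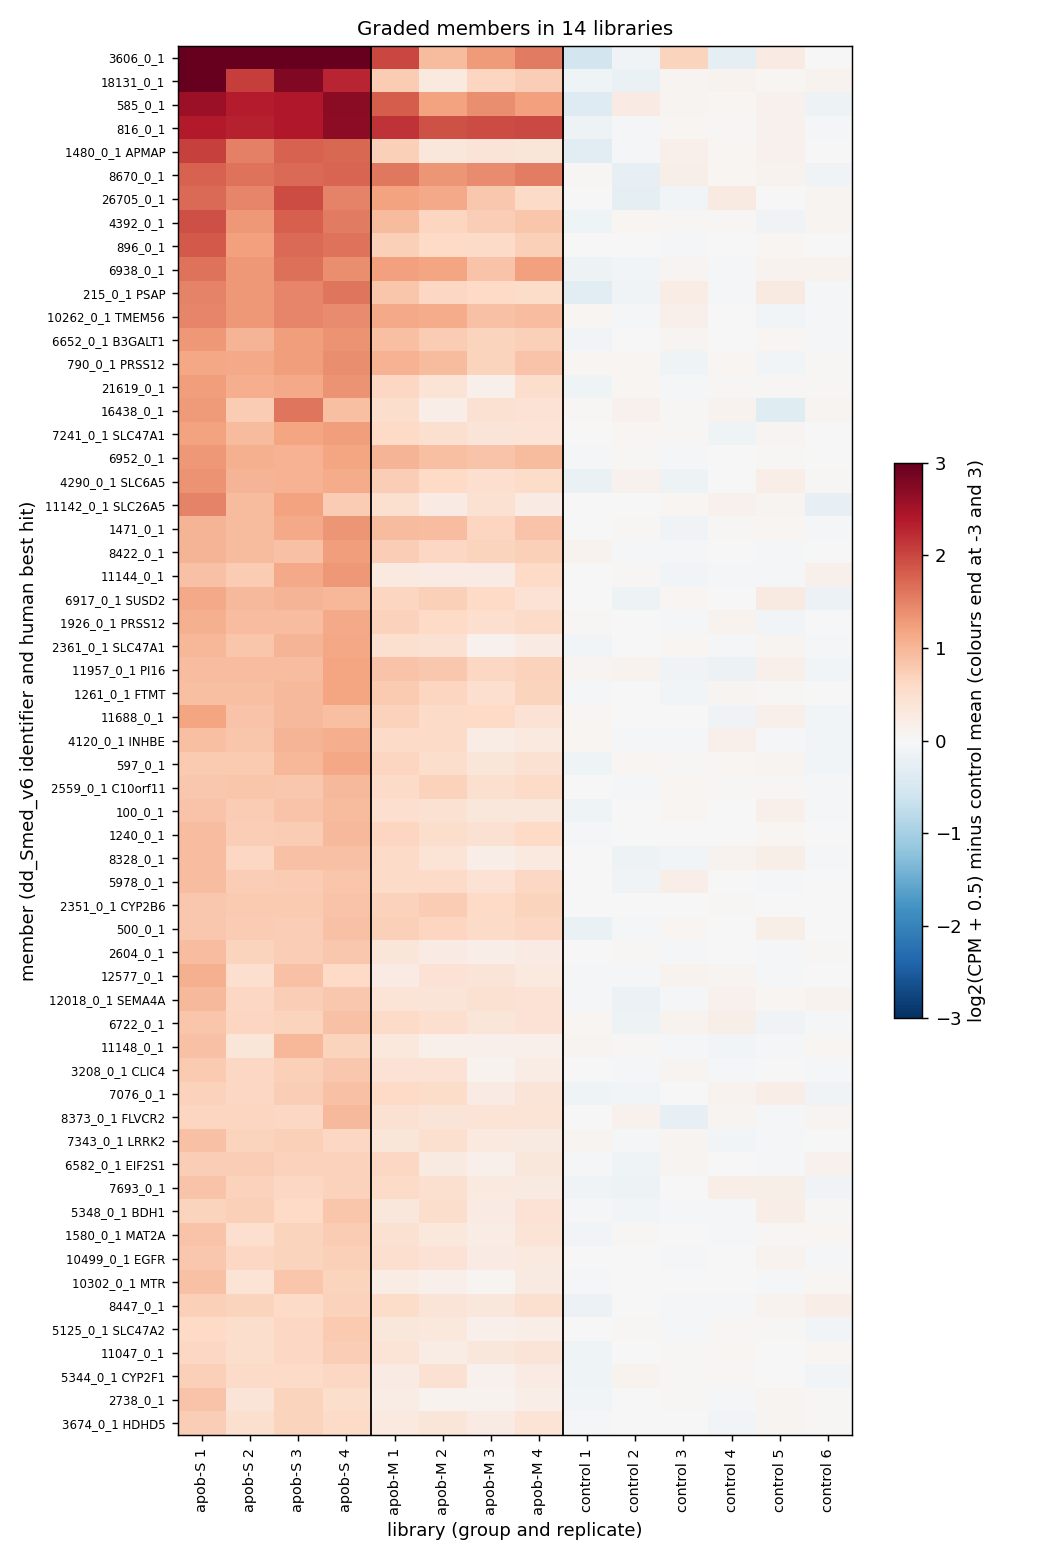
Level of each of the 59 members (rows, ordered by the apob-S difference, named by identifier and human best hit) in each of the 14 libraries (columns), as log2(CPM + 0.5) minus the mean over control libraries. Colour deepens to the left in every row, most in the top row, dd_Smed_v6_3606_0_1, whose apob-S mean was 4.58 above the control mean.

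The steepest member was dd_Smed_v6_3606_0_1, a transcript of 702 bases with no annotation here. It had 153, 83.6, 204 and 150.4 CPM in apob-S, 23.6, 10.99, 13.9 and 17.1 CPM in apob-M, and 3.57 to 9.03 CPM (median 5.25) in control. The apob-S libraries lay far above the others and differed widely among themselves, while the lowest apob-M library was close to the highest control library. Its mean was 25.98-fold higher in apob-S and 2.88-fold higher in apob-M than in control. Next came dd_Smed_v6_18131_0_1, which the study's Gene Ontology table places among transcripts of xenobiotic, steroid and arachidonic acid metabolism. It had 25.5, 12.7, 21.2 and 14.8 CPM in apob-S, 4.87, 3.37, 4.40 and 4.73 CPM in apob-M, and 2.23 to 2.89 CPM (median 2.79) in control. This transcript was rare in control and apob-M alike, and the lowest apob-S library, replicate 2, was still well above the highest apob-M library. dd_Smed_v6_585_0_1 had 109, 93.8, 96.8 and 121 CPM in apob-S, 64.7, 42.1, 47.9 and 42.95 CPM in apob-M, and 13.7 to 21.6 CPM (median 18.9) in control. Its libraries fell into 3 separate bands.

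dd_Smed_v6_816_0_1, placed with fatty acid, icosanoid and sulfur compound metabolism, showed the highest rise in apob-M. It had 904, 866, 911 and 1107 CPM in apob-S, 778, 648, 677 and 681 CPM in apob-M, and 156 to 189 CPM (median 174) in control. Its apob-M libraries already stood 4.01-fold above control on average, and the step from there to apob-S was only 1.36-fold. APMAP (adipocyte plasma membrane-associated protein, dd_Smed_v6_1480_0_1), named for its place on the surface of mammalian fat cells, gave the opposite profile. It had 341, 235, 281 and 274 CPM in apob-S, 134, 104, 108 and 106 CPM in apob-M, and 65.8 to 91.8 CPM (median 84.1) in control. Its apob-M libraries lay just above control and its apob-S libraries 2.50-fold above apob-M. dd_Smed_v6_8670_0_1, without annotation, had 136, 124, 129 and 134 CPM in apob-S, 120.0, 98.9, 106 and 116 CPM in apob-M, and 33.1 to 44.7 CPM (median 40.5) in control, so that most of its difference from control was present in apob-M.

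**Figure D2:**
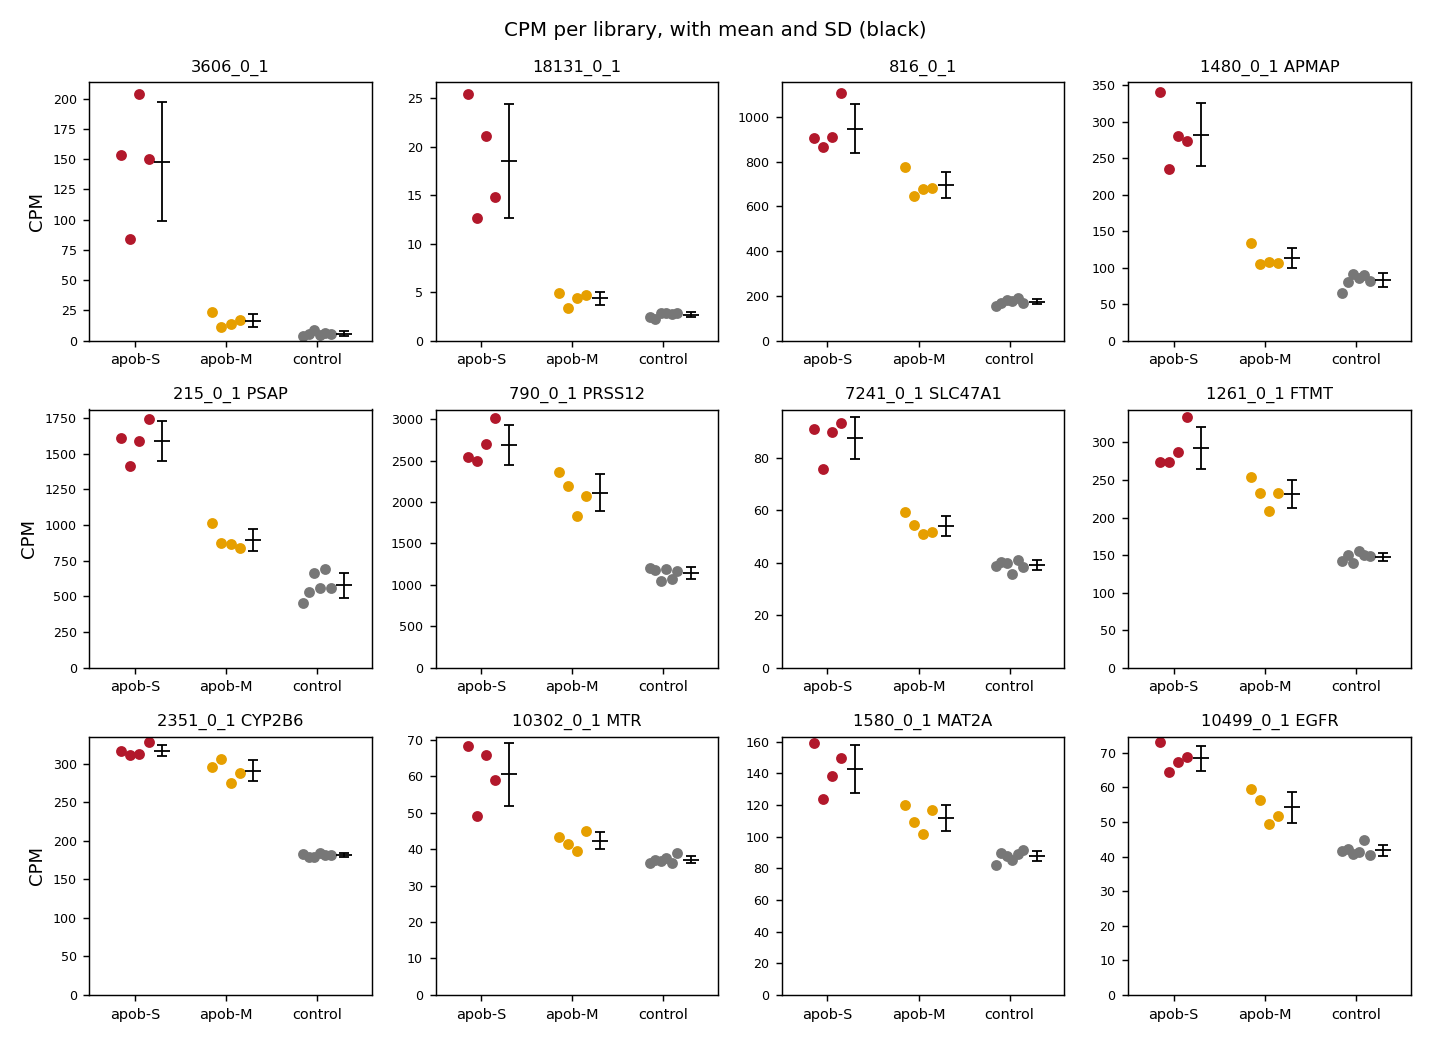
CPM of 12 members in each library (points; apob-S, apob-M and control from left to right), with the group mean and SD in black beside them and each axis starting at 0. Every panel shows 3 bands of points in the same order, since the rule required it. By ratio, the gap between apob-S and apob-M is narrowest in CYP2B6 and then MAT2A. In CYP2B6 and dd_Smed_v6_816_0_1 both groups lie well above control, and MTR has narrow gaps on both sides of apob-M.

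Membrane transporters were the family with most members among the annotated ones. Proteins of the SLC47 family (MATE, multidrug and toxin extrusion) export organic cations and drugs in exchange for protons, and 3 members had an SLC47 best hit. dd_Smed_v6_7241_0_1 (SLC47A1) had 91.00, 75.6, 89.9 and 93.3 CPM in apob-S, 59.5, 54.5, 50.97 and 51.6 CPM in apob-M, and 35.6 to 41.2 CPM (median 39.4) in control. dd_Smed_v6_2361_0_1 (SLC47A1) averaged 188 ± 17.3 CPM in apob-S, 118 ± 13.7 CPM in apob-M and 93.6 ± 4.13 CPM in control (SD), and dd_Smed_v6_5125_0_1 (SLC47A2) 89.8 ± 6.95 CPM in apob-S, 68.5 ± 4.42 CPM in apob-M and 57.7 ± 2.08 CPM in control. Of their rise in apob-S on the log2 scale, 40.4%, 33.2% and 38.96% was present in apob-M. Of 6 other tested transcripts with an SLC47 best hit, which did not meet the rule, 5 rose in apob-S against control and 1 rose in apob-M (edgeR's quasi-likelihood test, adjusted p under 0.05). Over all tested transcripts, 13.5% were called higher in apob-S and 7.05% in apob-M. dd_Smed_v6_8335_0_1 (SLC47A1) was the clearest of the SLC47 relatives, with 76.9 CPM in apob-S and 51.5 CPM in control on average, a log2 fold change of 0.59 ± 0.05 (SE, edgeR adjusted p = 1.16e-08), while in apob-M its log2 fold change over control was 0.09 (adjusted p = 0.23). The tables with best hits cover 2093 of the tested transcripts, in part chosen by the study as changed in these libraries, so counts of relatives are not independent evidence of a direction.

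SLC6A5 is a sodium- and chloride-coupled glycine transporter. Its best-hit member dd_Smed_v6_4290_0_1 had 113, 89.5, 91.7 and 95.5 CPM in apob-S, 73.99, 67.2, 62.8 and 65.02 CPM in apob-M, and 38.3 to 50.8 CPM (median 44.5) in control. The second SLC6A5 best hit, dd_Smed_v6_10458_0_1, had 25.8 CPM in apob-S and 21.5 CPM in control (log2 fold change 0.27 ± 0.07, SE, edgeR adjusted p = 0.00805). SLC26A5 (prestin) belongs to a family of anion exchangers, and its member dd_Smed_v6_11142_0_1 was near the lower limit of the levels taken in, with 16.6, 11.3, 13.5 and 9.80 CPM in apob-S, 8.04, 6.75, 7.88 and 6.69 CPM in apob-M, and 4.64 to 6.17 CPM (median 5.69) in control. CLIC4, a chloride intracellular channel protein, had 65.5, 58.6, 62.6 and 66.6 CPM in apob-S, 51.5, 50.9, 40.8 and 44.3 CPM in apob-M, and 36.5 to 40.2 CPM (median 37.3) in control for dd_Smed_v6_3208_0_1. Across all 94 other tested transcripts with a solute carrier best hit, 43 rose and 16 fell in apob-S against control, and 22 rose and 5 fell in apob-M against control. CLIC4 was listed with ion channels, and of 27 other tested transcripts there, 2 rose and 11 fell in apob-S against control. In apob-M 2 of these channels rose and 2 fell. Of all tested transcripts, 13.5% were called higher and 15.7% lower in apob-S against control, and 7.05% higher and 8.24% lower in apob-M against control. These shares are not a like background, since the lists cover only transcripts with a best hit, in tables chosen in part for change in these libraries. The median log2 difference from control was 0.16 in apob-S and 0.07 in apob-M over the 94 solute carriers. Over all 2093 tested transcripts with a best hit it was 0.04 and 0.02.

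**Figure D3:**
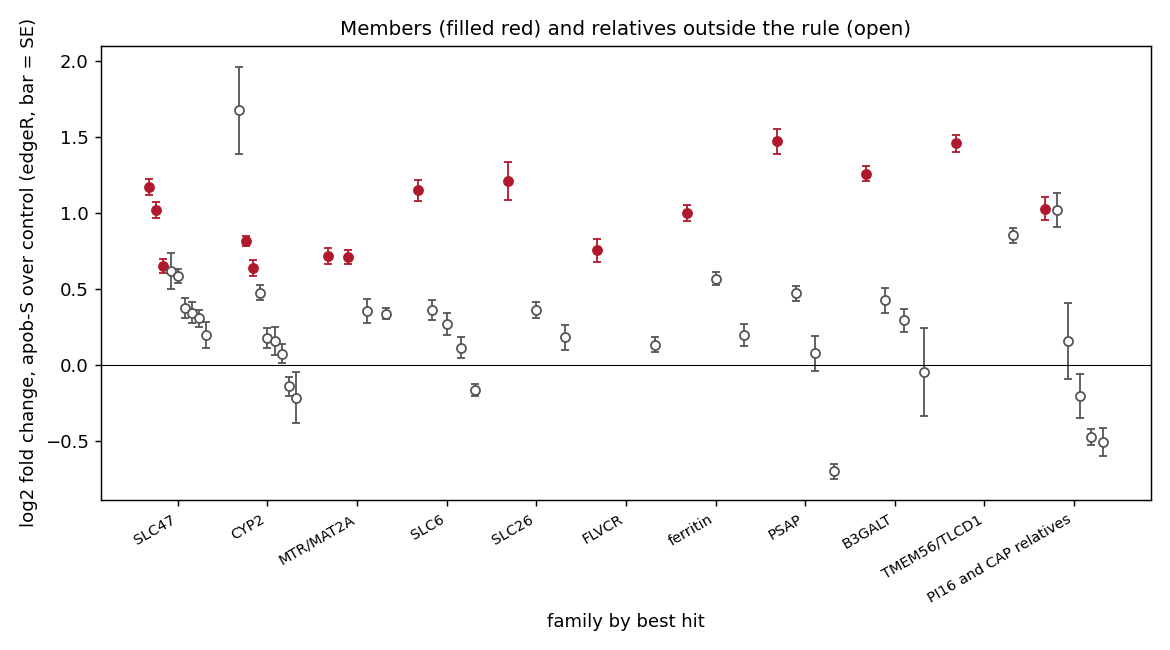
Log2 fold change of apob-S over control (edgeR, bars show the SE) for members (filled) and for other tested transcripts with a best hit in the same family (open). The members were chosen for this difference. In the SLC47 family the open points lie between 0.20 and 0.62, and in the CYP2 family they lie on both sides of 0, with dd_Smed_v6_2394_0_1 (CYP2J2) at 1.67. The CYP2 points include dd_Smed_v6_16749_0_1 (CYP20A1, 0.16), grouped there by its symbol though of a separate P450 family.

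Iron and heme handling were represented by FTMT and FLVCR2. Ferritin stores iron inside cells, and the member with the mitochondrial ferritin best hit, dd_Smed_v6_1261_0_1, had 274, 275, 288 and 334 CPM in apob-S, 254, 232, 208 and 233 CPM in apob-M, and 139.9 to 155 CPM (median 149) in control. The 3 bands of its libraries were close but separate. The 2 other transcripts with a ferritin best hit both had the FTH1 hit, and dd_Smed_v6_6677_0_1 rose to 45.0 CPM in apob-S and 40.9 CPM in apob-M, against 30.6 CPM in control (log2 fold changes 0.57 ± 0.04 and 0.41 ± 0.04, SE, edgeR adjusted p = 6.51e-09 and 1.68e-06). The other, dd_Smed_v6_1033_0_1, had 78.5 CPM in apob-S and 68.9 CPM in control and was not called (adjusted p = 0.05035). FLVCR2, of a family of heme and choline transporters, was the best hit of dd_Smed_v6_8373_0_1, which had 23.2, 23.2, 22.7 and 29.1 CPM in apob-S, 20.1, 19.3, 19.6 and 19.6 CPM in apob-M, and 12.3 to 15.96 CPM (median 14.9) in control. The study files dd_Smed_v6_12577_0_1 under heme export as well, in its list for transcripts changed by nkx2.2 RNAi, a separate experiment. In the present libraries dd_Smed_v6_12577_0_1 averaged 16.03 ± 2.89 CPM in apob-S, 11.7 ± 0.721 CPM in apob-M and 9.12 ± 0.503 CPM in control. Within groups the deviations of these transcripts did not run together, with a correlation of -0.416 over the 14 libraries.

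Methionine synthase (MTR) makes methionine from homocysteine, and methionine adenosyltransferase (MAT2A) turns it into S-adenosylmethionine, the methyl donor of the cell. dd_Smed_v6_10302_0_1 (MTR) had 68.4, 49.1, 65.9 and 59.1 CPM in apob-S, 43.3, 41.5, 39.5 and 45.02 CPM in apob-M, and 36.2 to 38.8 CPM (median 36.9) in control. Its apob-M libraries were only just above control, and replicates 1 and 3 stood out among the apob-S libraries. dd_Smed_v6_1580_0_1 (MAT2A) had 159, 124, 139 and 149.9 CPM in apob-S, 119.9, 109, 101 and 117 CPM in apob-M, and 82.4 to 91.5 CPM (median 88.6) in control. The 2 further MAT2A best hits rose in apob-S without meeting the rule. dd_Smed_v6_907_0_1 had 434 CPM in apob-S and 409 CPM in apob-M, against 346 CPM in control, with log2 fold changes of 0.34 ± 0.04 and 0.23 ± 0.04 (SE, edgeR adjusted p = 5.05e-07 and 0.000139). dd_Smed_v6_10278_0_1 had 25.3 CPM in apob-S and 19.9 CPM in control (0.36 ± 0.08, SE, adjusted p = 0.00145).

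Among the study's Gene Ontology terms, response to nutrient levels held 5 members, namely dd_Smed_v6_896_0_1, FTMT, INHBE, LRRK2 and EIF2S1. The study drew up its lists of terms from transcripts changed in these libraries or in its separate nkx2.2 RNAi experiment. This term comes from these libraries. The lists are held in part, so the grouping is a label only. dd_Smed_v6_896_0_1, also filed under amino acid metabolism, had 379, 247, 345 and 330.2 CPM in apob-S, 174, 159, 158 and 174 CPM in apob-M, and 104 to 109.6 CPM (median 105) in control. The control libraries hardly differed, and the apob-S libraries were high in replicates 1, 3 and 4 and lower in replicate 2. EIF2S1 is the alpha subunit of translation initiation factor 2, on which several stress kinases act, and dd_Smed_v6_6582_0_1 had 15.8, 15.7, 15.3 and 15.3 CPM in apob-S, 14.4, 11.2, 10.3 and 11.8 CPM in apob-M, and 8.41 to 10.1 CPM (median 9.08) in control. LRRK2 is a large kinase with GTPase activity linked in mammals to autophagy and lysosomes, and dd_Smed_v6_7343_0_1, the longest member at 7007 bases, had 141, 122, 127 and 119 CPM in apob-S, 99.1, 107, 94.9 and 93.4 CPM in apob-M, and 72.2 to 81.9 CPM (median 75.7) in control. Neither EIF2B4 nor EIF2AK1, which act with EIF2S1 in this step of translation, was called in apob-S against control (log2 fold changes 0.04 and 0.10, edgeR adjusted p = 0.809 and 0.364). dd_Smed_v6_11148_0_1, filed under response to starvation, averaged 47.98 ± 9.02 CPM in apob-S, 32.5 ± 2.00 CPM in apob-M and 28.3 ± 1.28 CPM in control.

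Enzymes and carriers of lipid metabolism formed another group by annotation. Prosaposin (PSAP) is cut in lysosomes into saposins, cofactors for the breakdown of sphingolipids. dd_Smed_v6_215_0_1 (PSAP) had 1609, 1411, 1591 and 1745 CPM in apob-S, 1011, 874, 864 and 842 CPM in apob-M, and 454 to 695 CPM (median 559.6) in control. It was abundant in every library, and even the control libraries spanned a wide range. Other prosaposin best hits did not move alike. dd_Smed_v6_396_0_1 (PSAP) rose to 815.9 CPM in apob-S, against 594 CPM in control (log2 fold change 0.47 ± 0.05, SE, edgeR adjusted p = 1.04e-06). In contrast, dd_Smed_v6_284_0_1, whose best hit is mouse Psapl1, fell to 235 CPM in apob-S and 245 CPM in apob-M, against 384 CPM in control (adjusted p = 4.03e-09 and 3.28e-08). B3GALT1 adds galactose to glycan and glycolipid chains, and dd_Smed_v6_6652_0_1 had 73.97, 60.8, 71.8 and 76.6 CPM in apob-S, 56.3, 50.5, 47.3 and 48.9 CPM in apob-M, and 28.2 to 31.5 CPM (median 29.6) in control. dd_Smed_v6_8328_0_1, filed under acylglycerol and ceramide metabolism without a best hit, averaged 23.7 ± 2.24 CPM in apob-S, 17.2 ± 1.94 CPM in apob-M and 13.2 ± 1.21 CPM in control. BDH1 interconverts the ketone bodies acetoacetate and beta-hydroxybutyrate, and dd_Smed_v6_5348_0_1 averaged 27.2 ± 1.87 CPM in apob-S, 21.8 ± 1.89 CPM in apob-M and 16.5 ± 1.31 CPM in control. dd_Smed_v6_3674_0_1 (HDHD5), filed under glycerophospholipid metabolism, averaged 57.6 ± 4.44 CPM in apob-S, 47.2 ± 2.40 CPM in apob-M and 37.5 ± 1.48 CPM in control. TMEM56, a membrane protein with a TLC domain, was the best hit of dd_Smed_v6_10262_0_1, which had 32.02, 28.2, 32.02 and 30.6 CPM in apob-S, 25.2, 25.1, 20.9 and 21.6 CPM in apob-M, and 10.6 to 12.5 CPM (median 11.02) in control. Its relative dd_Smed_v6_6951_0_1 (best hit mouse Tlcd1) rose to 55.7 CPM in apob-S and 52.4 CPM in apob-M, against 31.0 CPM in control (log2 fold changes 0.85 ± 0.05 and 0.75 ± 0.05, SE, edgeR adjusted p = 2.19e-10 and 4.74e-09).

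Cytochrome P450 enzymes of the CYP2 family oxidise drugs, steroids and fatty acids. dd_Smed_v6_2351_0_1 (CYP2B6) had 317, 312, 313 and 328 CPM in apob-S, 295, 307, 275 and 288 CPM in apob-M, and 179 to 185 CPM (median 182) in control. Its apob-S and apob-M libraries nearly touched, and both lay far above the tight control libraries. dd_Smed_v6_5344_0_1 (CYP2F1) averaged 84.5 ± 3.79 CPM in apob-S, 66.1 ± 6.24 CPM in apob-M and 54.7 ± 3.29 CPM in control. Of 7 other tested transcripts grouped here by a symbol starting with CYP2, 3 rose in apob-S and 1 rose in apob-M against control. Over all tested transcripts, 13.5% were called higher in apob-S and 7.05% in apob-M, so nothing is read from these counts. The 7 include dd_Smed_v6_16749_0_1 (CYP20A1), of a separate P450 family, which was called in neither comparison. Among the 7, dd_Smed_v6_10682_0_1 (CYP2C18) had less in apob-S than apob-M, with 23.9 CPM in apob-S, 36.1 CPM in apob-M and 21.3 CPM in control (log2 difference of apob-S minus apob-M -0.57 ± 0.07, SE, edgeR adjusted p = 2e-05). Its rise in apob-S over control was barely called (log2 fold change 0.18, edgeR adjusted p = 0.0468).

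Both transcripts with a neurotrypsin (PRSS12) best hit were members, and no other was listed in the tables used here. Neurotrypsin is a secreted serine protease, known in mammals for its role at synapses. dd_Smed_v6_790_0_1 had the highest mean CPM of all members, with 2538, 2495, 2702 and 3017 CPM in apob-S, 2359, 2192, 1827 and 2071 CPM in apob-M, and 1041 to 1197 CPM (median 1178) in control. dd_Smed_v6_1926_0_1 averaged 517 ± 37.5 CPM in apob-S, 386 ± 19.5 CPM in apob-M and 256 ± 12.2 CPM in control. Within groups their deviations had a correlation of 0.640 over the 14 libraries. Reads that matched several transcripts were counted on each, and the part of shared sequence in such pairs was not tested. PI16 belongs to the CAP family of secreted proteins, and dd_Smed_v6_11957_0_1 averaged 22.5 ± 2.19 CPM in apob-S, 18.9 ± 1.46 CPM in apob-M and 11.1 ± 1.05 CPM in control. Its CAP relatives went both ways, since CRISPLD1 (dd_Smed_v6_12641_0_1) rose to 6.503 CPM in apob-S and 6.09 CPM in apob-M, against 3.24 CPM in control (edgeR adjusted p = 9.27e-07 and 1.89e-05), and the second PI16 best hit, dd_Smed_v6_2187_0_1, fell to 66.3 CPM in apob-S and 72.6 CPM in apob-M, against 92.6 CPM in control (adjusted p = 1.65e-06 and 0.000118). SUSD2, a membrane protein with a sushi domain, was the best hit of dd_Smed_v6_6917_0_1, which averaged 57.6 ± 3.11 CPM in apob-S, 42.5 ± 3.64 CPM in apob-M and 28.1 ± 3.33 CPM in control.

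Signalling proteins were few. INHBE is a secreted ligand of the activin group of the TGF-beta family, and dd_Smed_v6_4120_0_1 had 116, 109.8, 124 and 132 CPM in apob-S, 91.7, 91.3, 71.5 and 75.1 CPM in apob-M, and 57.8 to 68.5 CPM (median 59.5) in control. The other INHBE best hit, dd_Smed_v6_7607_0_1, fell to 3.93 CPM in apob-M, against 5.55 CPM in control (log2 fold change -0.50, edgeR adjusted p = 0.0267), and had 5.41 CPM in apob-S (adjusted p = 0.8955). EGFR, a receptor tyrosine kinase, was the best hit of dd_Smed_v6_10499_0_1, which had 73.1, 64.6, 67.3 and 68.7 CPM in apob-S, 59.6, 56.4, 49.6 and 51.6 CPM in apob-M, and 40.5 to 44.8 CPM (median 41.5) in control. A transcript with an ERBB4 best hit, dd_Smed_v6_10624_0_1, was not called in either comparison (adjusted p = 0.344 in apob-S and 0.819 in apob-M against control). SEMA4A is a semaphorin, a family that guides cells and axons, and dd_Smed_v6_12018_0_1 averaged 29.4 ± 3.11 CPM in apob-S, 22.8 ± 0.419 CPM in apob-M and 16.9 ± 1.40 CPM in control. C10orf11, a leucine-rich repeat protein linked in humans to melanocyte pigmentation, was the best hit of dd_Smed_v6_2559_0_1, with 81.5, 83.5, 81.6 and 91.6 CPM in apob-S, 68.96, 74.98, 65.1 and 69.4 CPM in apob-M, and 44.4 to 48.3 CPM (median 46.7) in control. Its apob-S and apob-M libraries were apart from control, as the rule required. Any link to the loss of pigment by which the knockdown animals were sorted was not tested.

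Chaperones help proteins to fold, and genes of endoplasmic reticulum stress answer misfolded protein in that compartment. Of the 24 tested transcripts with such a best hit, 0 met the rule. Only 59 of all 18436 tested transcripts met it, so that 0 says little. Of the 24, 13 were called higher and 2 lower in apob-S against control, and 11 higher and 2 lower in apob-M against control. Over all tested transcripts these shares were 13.5% and 15.7% in apob-S and 7.05% and 8.24% in apob-M, and the tables with best hits were chosen in part for change in these libraries. Other lists without a member did not all lean this way in apob-S against control. Of 12 ribosomal proteins 0 were called higher and 3 lower, and of 22 fatty acid and sphingolipid enzymes 7 higher and 4 lower. Of those 22, 4 were on the study's lipid lists and could not be members. Of 45 transcription factors 16 were called higher and 5 lower, and of 41 small GTPases and regulators 14 higher and 4 lower.

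Among the members without annotation, dd_Smed_v6_100_0_1 was the most abundant, with 2179.7, 2055, 2190.3 and 2317 CPM in apob-S, 1712, 1660.0, 1538 and 1528 CPM in apob-M, and 1102 to 1333 CPM (median 1199.9) in control. Levels of different transcripts compare only per length, and per kilobase dd_Smed_v6_100_0_1 led all members, with 2982, 2196 and 1652 CPM per kb on average in apob-S, apob-M and control. PSAP (dd_Smed_v6_215_0_1) had 1725, 975 and 627 CPM per kb in the same groups, and PRSS12 (dd_Smed_v6_790_0_1), long at 3862 bases, had 696, 547 and 296. Median length was 1560 bases in the members and 1244 bases in all tested transcripts. The median of the mean CPM over 14 libraries was 49.3 in the members and 23.7 in the 13368 tested transcripts with at least 4 CPM, and 58 members were the only transcript of their assembly component, as were 98.3% of all tested transcripts.

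Where apob-M stood between the other groups varied from member to member. On the log2 scale, the share of the apob-S rise over control that was present in apob-M had a median of 53.7% over the members and ranged between 23.8% and 85.9%. In 10 members at least 70% was present in apob-M, in 36 between 40% and 70%, and in 13 under 40%. The largest shares belonged to dd_Smed_v6_8670_0_1 (85.9%), CYP2B6 (84.7%) and dd_Smed_v6_816_0_1 (81.8%), and the smallest to dd_Smed_v6_18131_0_1 (23.8%), dd_Smed_v6_2738_0_1 (24.8%) and APMAP (25.6%). Leaving out each library in turn moved these shares by a few points and kept the ends of the order apart, with 83.4% to 88.7% for dd_Smed_v6_8670_0_1 and 21.7% to 27.4% for dd_Smed_v6_18131_0_1. Neighbours in the middle of the order were not separated in this way, as for EIF2S1, whose share ran from 35.2% to 57.5%. dd_Smed_v6_2738_0_1, filed under carboxylic acid synthesis, had 142, 102, 125 and 113 CPM in apob-S, 91.7, 83.7, 83.7 and 89.4 CPM in apob-M, and 73.9 to 82.3 CPM (median 78.8) in control.

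**Figure D4:**
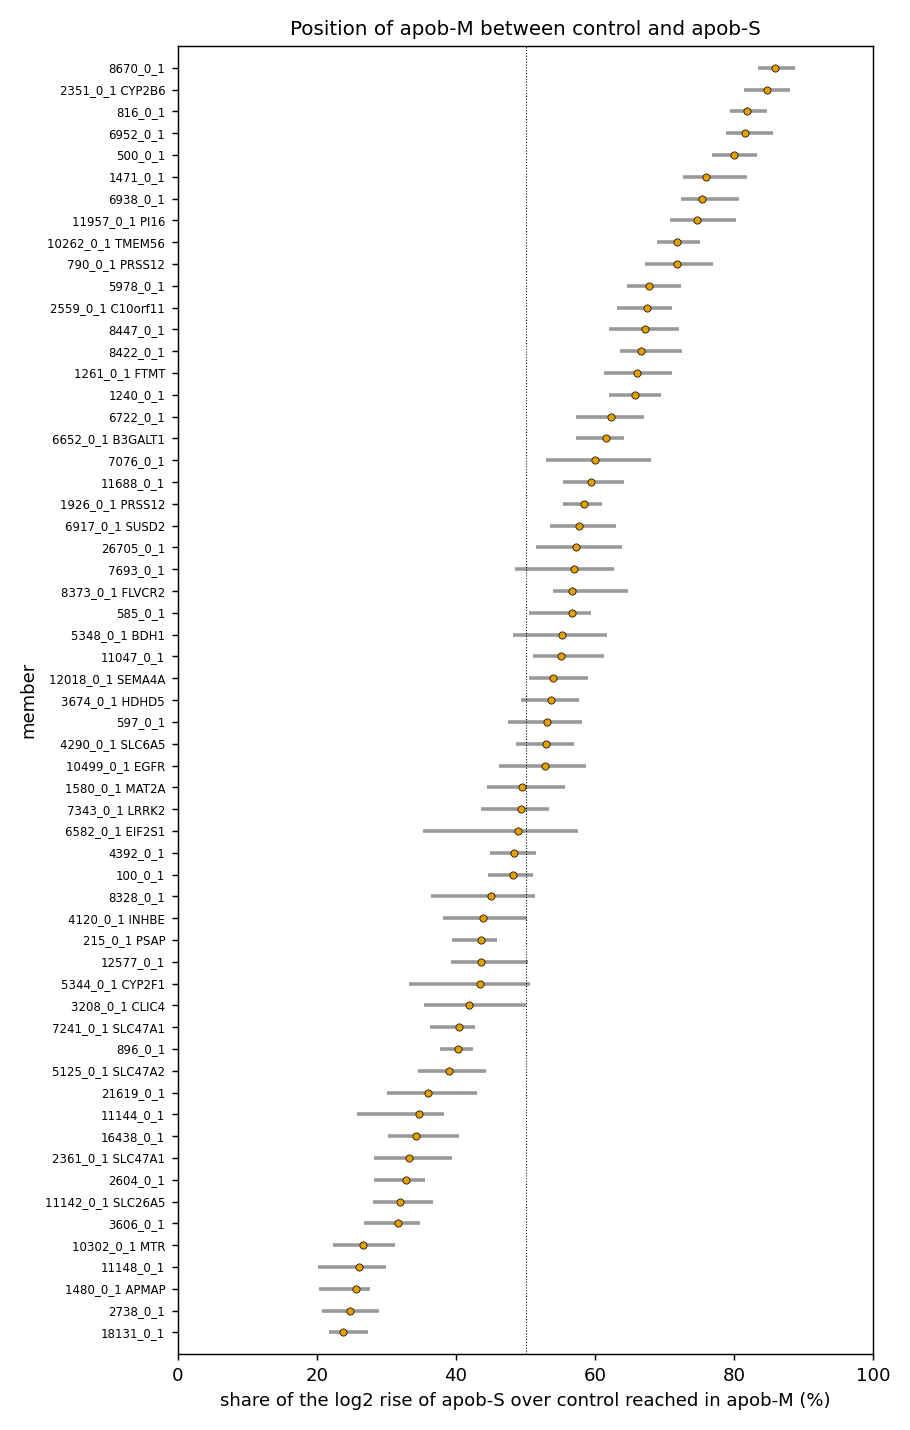
Share of the log2 rise of apob-S over control that was present in apob-M (x axis, %), for each member (y axis). Points use all libraries, grey bars span the values with each library left out in turn and the dotted line marks the midpoint. The points run from 23.8% to 85.9%.

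Members with like annotation could differ in this position. All 3 SLC47 members lay at or under 40.4%, PRSS12 at 71.8% and 58.4%, and CYP2B6 and CYP2F1 at 84.7% and 43.5%. MTR lay at 26.7% and MAT2A at 49.6%. FTMT lay at 65.98% and FLVCR2 at 56.7%.

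Libraries of a group also differed in how far the members stood above control. Over the members, the median log2 difference from the control mean was 0.94, 0.79, 0.93 and 0.97 in apob-S replicates 1 to 4, and 0.60, 0.52, 0.44 and 0.44 in apob-M replicates 1 to 4. The control libraries lay between -0.03 and 0.06. In apob-S replicate 2, 46 members had their lowest apob-S value, and in apob-M replicate 3, 36 had their lowest apob-M value. In these 2 libraries a single transcript, dd_Smed_v6_4_1_1, took 5.36% and 7.28% of the counts, against at most 2.43% in any other library, and over all tested transcripts the median deviation from the group mean was -0.08 and -0.13 on the log2 scale. With library sizes normalized by TMM (trimmed mean of M-values), the members' median differences were 0.89, 0.88, 0.94 and 0.95 in apob-S and 0.54, 0.47, 0.56 and 0.40 in apob-M. Under that scaling 57 of the 59 members still met the rule, and 28 further transcripts did so.

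Some members deviated together within groups. On the TMM scale, dd_Smed_v6_896_0_1 and MTR had the highest correlation of their deviations from group means, 0.887 over 14 libraries, followed by dd_Smed_v6_18131_0_1 with dd_Smed_v6_2738_0_1 (0.878), PSAP with dd_Smed_v6_100_0_1 (0.877), dd_Smed_v6_100_0_1 with dd_Smed_v6_500_0_1 (0.876) and dd_Smed_v6_4392_0_1 with MTR (0.874). MTR, dd_Smed_v6_896_0_1, dd_Smed_v6_18131_0_1 and dd_Smed_v6_2738_0_1 had their highest apob-S values in replicates 1 and 3 and their lowest in replicate 2. dd_Smed_v6_4392_0_1, filed under eye development, had 80.2, 51.8, 73.1 and 61.8 CPM in apob-S, 40.9, 33.01, 35.2 and 37.5 CPM in apob-M, and 18.95 to 21.96 CPM (median 21.4) in control. FTMT, PSAP, PRSS12 and dd_Smed_v6_816_0_1 were instead highest in apob-S replicate 4. Over all 1711 pairs of members the median correlation was 0.122, and it was 0.00 over all pairs of the 13368 transcripts with at least 4 CPM. These correlations share libraries and depth and are a description.

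By edgeR's quasi-likelihood test, 59 members were called higher in apob-S against control, where 13.5% of all tested transcripts were, 55 in apob-M against control, where 7.05% were, and 59 in apob-S against apob-M, where 5.17% were. Since these contrasts chose the members, nothing is read from the counts, and apob-M and apob-S were compared with the same control libraries. Of all tested transcripts, 0.678% were ordered from control to apob-M to apob-S without overlap. The mirrored rule for a decrease was met by 111 transcripts.

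The limits of the rule cut through a continuum. On the log2 ratio, the members just inside were HDHD5 (0.61), dd_Smed_v6_2738_0_1 (0.62) and CYP2F1 (0.62), and just outside were dd_Smed_v6_14593_0_1 (0.59), dd_Smed_v6_15802_0_1 (0.59) and dd_Smed_v6_526_0_1 (0.59). On the mean level, dd_Smed_v6_26705_0_1 (4.15 CPM), dd_Smed_v6_18131_0_1 (7.67 CPM) and SLC26A5 (8.16 CPM) were just inside, and dd_Smed_v6_18454_0_1 (3.93 CPM), dd_Smed_v6_13872_0_1 (3.76 CPM) and dd_Smed_v6_23420_0_1 (3.65 CPM) just outside. On the gap between groups, dd_Smed_v6_1471_0_1 passed with a lowest apob-S library of 280.2 CPM against a highest apob-M library of 278.5 CPM, and dd_Smed_v6_6952_0_1 with 57.3 against 56.9 CPM. Just outside, dd_Smed_v6_13983_0_1 was listed at 0 CPM in every control library and at most 0.0547 CPM in apob-M, with 6.56 CPM or more in apob-S, and failed because its lowest apob-M library was at 0 as well. dd_Smed_v6_783_0_1 missed with 94.6 against 95.0 CPM and dd_Smed_v6_3982_0_1 (ABCC1, a drug and conjugate exporter) with 159.1 against 160.3 CPM. In all, 187 transcripts met every condition but the gaps, 48 every one but the log2 ratio, and 6 every one but the mean level.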

How the data were processed

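RNA-seq libraries from whole planarians were grouped by the samples' labels. Before deposit, the authors cleaned the reads using BBDuk, mapped them by Bowtie2 2.3.1 against the dd_Smed_v6 transcriptome, keeping every match of a read, and summarised them in featureCounts (Subread 1.6.3), so that a read matching several transcripts was added to each. The authors deposited raw counts per transcript, which are the values used. Their deposited table of log2 fold changes, log2 CPM and false discovery rates was not used.

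CPM is the count over the library total times 1000000. Members and lists were chosen with earlier results of these data known. Transcripts reaching 1 CPM in 4 or more libraries (18436) were fitted with edgeR 4.0.16 (R 4.3.3), using its quasi-likelihood test, TMM normalization, group as the only term and Benjamini-Hochberg adjustment at 0.05, over all 14 libraries. Best hits and Gene Ontology terms come from supplementary tables held in part, some of them from the study's separate nkx2.2 RNAi experiment. Alternatives were DESeq2 1.42.0, the exact test, other size factors, filters, pseudocounts, a replicate block and each library left out. Members named are those with a human best hit, the 6 largest ratios, the 3 highest levels, the 3 largest and smallest shares in apob-M, those at the limits and those with an outlying library, and some others are named as examples chosen after their values were seen. Scripts were tested on simulated data.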

Additional observations from a re-analysis of the deposited data

Results flagged for a closer look

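Each group of libraries was examined for a highest or lowest library far from the others on the log2(CPM + 0.5) scale by Dixon's test at the 95% level. This singled out 10 of 177 groups of libraries over the 59 members. Chance singles out about 1 in 20 in values that were not selected. The rule used the highest and lowest libraries of the groups, and members share libraries. That rate need not hold here, so the list is a description only. In apob-S, dd_Smed_v6_11957_0_1 (PI16) in replicate 4 was above the rest, at 25.8 CPM against 21.4 to 21.6 CPM. dd_Smed_v6_8373_0_1 (FLVCR2) in replicate 4 was above the rest, at 29.1 CPM against 22.7 to 23.2 CPM. In apob-M, dd_Smed_v6_1480_0_1 (APMAP) in replicate 1 was above the rest, at 134 CPM against 104 to 108 CPM. dd_Smed_v6_6938_0_1 in replicate 3 was below the rest, at 8.97 CPM against 11.4 to 11.7 CPM. dd_Smed_v6_11144_0_1 in replicate 4 was above the rest, at 9.24 CPM against 7.13 to 7.38 CPM. dd_Smed_v6_11148_0_1 in replicate 1 was above the rest, at 35.5 CPM against 31.3 to 31.8 CPM. In control, dd_Smed_v6_16438_0_1 in replicate 5 was below the rest, at 5.38 CPM against 7.3 to 7.78 CPM. dd_Smed_v6_11142_0_1 (SLC26A5) in replicate 6 was below the rest, at 4.64 CPM against 5.55 to 6.17 CPM. dd_Smed_v6_8422_0_1 in replicate 1 was above the rest, at 23.4 CPM against 21.3 to 21.8 CPM. dd_Smed_v6_5978_0_1 in replicate 3 was above the rest, at 47.2 CPM against 37.9 to 40.7 CPM.

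None of these libraries was taken out of the values above. Of the 4 outlying values in apob-M, the one of dd_Smed_v6_6938_0_1 was in replicate 3, where dd_Smed_v6_4_1_1 took 7.28% of the counts.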

How the results depend on the processing

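The number of members was 59 and stayed within 1.5 times of that under TMM CPM (85), DESeq2 size factors (86), mean levels of at least 1 or 10 CPM (65 and 54), pseudocounts of 0.1 and 2 (61 and 56) and transcripts alone in their component (58). A log2 ratio of at least 1 left 26. Without each library in turn it was 58 to 77, the most without apob-S replicate 2. The following alternatives were chosen after seeing the data. Leaving out both apob-M replicate 3 and apob-S replicate 2, rich in dd_Smed_v6_4_1_1, gave 99 members, with fewer libraries to keep apart, and leaving that transcript out of the totals gave 83, which held all 59. The median log2 difference of apob-S minus control was 0.97, and 0.83 with TMM, 0.85 with DESeq2 size factors, 0.85 with at least 10 CPM, 1.23 with a log2 ratio of at least 1, 0.86 without both libraries, 0.83 without dd_Smed_v6_4_1_1 in the totals, and 0.85 to 0.98 without each library. The cause was not tested. The limits of 10 CPM and of a log2 ratio of 1 only left members out, and the other scalings and the choice without both libraries also took in further transcripts. The median share present in apob-M was 53.7%, and 51.2% to 55.1% without each library. Of 354 values of single members under other scalings, pseudocounts and libraries, 10 moved by more than the spread of the apob-S libraries and 0 changed sign. The rule kept the libraries of the groups apart, which all but fixed the sign beforehand, so nothing is read from that 0.

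Over all tested transcripts, 2819 were called in apob-M against control, 5398 in apob-S against control and 2219 in apob-S against apob-M. With library size alone, apob-M against control gave 1795 calls. Without each library the counts were 2116 to 2920, 4749 to 5409 and 1623 to 2227. Replicates of the same number did not visibly deviate together, with correlations of -0.20 to 0.13 and 1 of 12 pairs over 0.1, against -0.22 to 0.24 for different numbers. So few pairs cannot exclude a pairing, and the fit assumed none. The highest value, 0.24, was between apob-M replicate 3 and apob-S replicate 2, both rich in dd_Smed_v6_4_1_1. A replicate block gave 2102, 4670 and 2127 calls. The limits are the few libraries of each group, and severity that was observed and not assigned. Annotation covers 37 of 59 members.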
